A study of Mus musculus with 4 samples.

Results

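The ADAM and ADAMTS metalloproteases and their tissue inhibitors, the TIMPs, were read in C3H10T1/2 cells, a line of mouse embryo fibroblasts used in assays of chemical transformation. Members were all genes whose array name begins with Adam, Adamts or Adamtsl and a number, or is Timp1 to Timp4: 58 of the 50090 gene names on the array, read by 94 probes. The study compared 2 control arrays (cells cultured for 6 weeks, agent given as control) with 2 arrays of cells labelled 3MC+TPA and likewise as cultured for 6 weeks. These cells first received 3MC, the hydrocarbon carcinogen 3-methylcholanthrene, at 2.5 µg/ml for 2 days, then normal medium for 4 days, and then TPA, a phorbol ester that activates protein kinase C, at 100 ng/ml and 2 times a week for 2 weeks. RNA of the exposed cells was taken after 4 further weeks without TPA. These steps together exceed 6 weeks. The sample titles do not say from which day the 6 weeks were counted in either group. The labels name no vehicle for the control cells, no isolation of transformed foci from the rest of a flask, and no separate cultures behind the 2 arrays of a group, so the tests below measure only the spread between arrays, which may be technical.

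ADAMs are membrane proteins with a metalloprotease and a disintegrin domain; the catalytic ones release the outer parts of growth factors, receptors and adhesion molecules from the cell surface, while others have lost the protease function and act in adhesion or sperm maturation. ADAMTS proteases are secreted and bind matrix through thrombospondin repeats; they cut aggrecan and versican, trim procollagens or act on microfibrils, and the ADAMTS-like proteins share their matrix-binding parts without a protease. TIMPs are small secreted inhibitors of matrix metalloproteinases (MMPs), and TIMP3 in particular also inhibits ADAM17 and the aggrecanases.

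Probe letters are shown for a pair of genes read by 2 probes each, since second probes are set beside the brightest one below. For Timp1 both probes passed the test, and for Adamts2 the brighter one did. The 2 probes of each gene share no run of letters longer than 6 of their 60 bases.
Timp1 probe 1: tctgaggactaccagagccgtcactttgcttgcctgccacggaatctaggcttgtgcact
Timp1 probe 2: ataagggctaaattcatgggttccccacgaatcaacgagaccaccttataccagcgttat
Adamts2 probe 1: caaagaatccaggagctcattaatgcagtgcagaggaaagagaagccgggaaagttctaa
Adamts2 probe 2: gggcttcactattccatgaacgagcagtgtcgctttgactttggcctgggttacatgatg

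Promoter windows of RefSeq (build GRCm38.p6, 250 bases before to 50 bases after a gene's start) were matched by symbol for 32 of the 58 genes, in 34 windows. They were searched on both strands for GCGTG, the core letters bound by the aryl hydrocarbon receptor that 3MC activates, and for TGANTCA, the letters of the AP-1 element through which TPA acts; a GCGTG and a TGANTCA can share the letters TG. GCGTG was in 19 of the 34 windows (55.9%) against 32.4% of 32851 windows of all genes, and TGANTCA in 4 (11.8%) against 7.81%. The members' windows are richer in G and C, with a median of 63.5% against 52.7%. Of the genes that passed the test below, 6 had a window. Of these, 3 of 5 that fell (Adam23, Timp1 and Timp3) and the 1 that rose (Adamtsl4) held GCGTG, and none of the 6 held TGANTCA. Windows of tested members that did not pass held GCGTG in 11 of 18 cases, and those of untested members in 4 of 10. The motif was thus not confined to genes that passed, and a link to the falls was not tested. The windows of the 3 that fell are printed as those of the genes that fell and hold the motif, with GCGTG or its complement in capitals; a match is a description of letters only.
Adam23 (chr1:63445641-63445940, + strand): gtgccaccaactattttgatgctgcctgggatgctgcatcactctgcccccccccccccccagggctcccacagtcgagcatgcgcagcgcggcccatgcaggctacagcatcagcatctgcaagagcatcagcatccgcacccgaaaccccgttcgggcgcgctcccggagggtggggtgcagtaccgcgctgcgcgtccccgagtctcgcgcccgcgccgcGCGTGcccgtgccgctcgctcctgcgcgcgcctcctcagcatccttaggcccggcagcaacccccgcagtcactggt
Timp1 (chrX:20869916-20870215, + strand): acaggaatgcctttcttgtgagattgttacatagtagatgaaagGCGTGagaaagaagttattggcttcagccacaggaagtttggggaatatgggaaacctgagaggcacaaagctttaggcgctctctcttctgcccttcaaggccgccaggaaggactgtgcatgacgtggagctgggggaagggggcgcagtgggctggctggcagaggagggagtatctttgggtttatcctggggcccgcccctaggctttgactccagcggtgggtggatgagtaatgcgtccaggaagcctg
Timp3 (chr10:86300162-86300461, + strand): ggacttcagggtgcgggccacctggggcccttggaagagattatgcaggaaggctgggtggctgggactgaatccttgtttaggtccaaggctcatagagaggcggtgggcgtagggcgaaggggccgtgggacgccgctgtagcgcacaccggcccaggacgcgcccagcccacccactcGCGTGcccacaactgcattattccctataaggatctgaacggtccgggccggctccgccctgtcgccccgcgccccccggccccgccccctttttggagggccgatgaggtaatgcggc

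Adam23 fell 16.8-fold, with the lowest adjusted p of the members, and Timp1 and Timp3 fell while Adam10, Adam17 and Timp2 did not pass. Levels are given as log2 of the signal over the 75th percentile of the same array, and a change is the mean of the 3MC+TPA arrays minus that of the control arrays. A gene is read by its brightest probe and was tested where both arrays of a group, or of both groups, flagged this probe as well above background. Of the 58 genes, 37 were above background on at least 1 array, 27 on all 4, and 33 were tested. At a limma adjusted p under 0.05, 4 members rose and 7 fell after exposure, and 22 did not pass. Adam12 and Adamts17 among the 7 were tested through the control arrays alone, where they are high. The filter itself thus favoured a fall of these genes, and their calls add no support. Over all 24981 genes tested, 7.28% were higher and 8.46% lower (15.7% in either direction, against 33.3% of the tested members). These shares over all genes also belong beside the small counts by kind and by list below. Among genes above background on all 4 arrays, adjusted over these alone, 4 of 27 members were higher and 6 lower, beside 8.09% and 8.84% of 22702 genes. The median log2 change was -0.23 over the tested members and -0.01 over all genes tested. The groups did not overlap for 23 tested members, 8 higher and 15 lower, beside 63.8% of all genes tested (31.4% higher and 32.4% lower). Timp4 also passed the filter on background through the control arrays alone, and it did not pass the test.

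**Figure D1:**
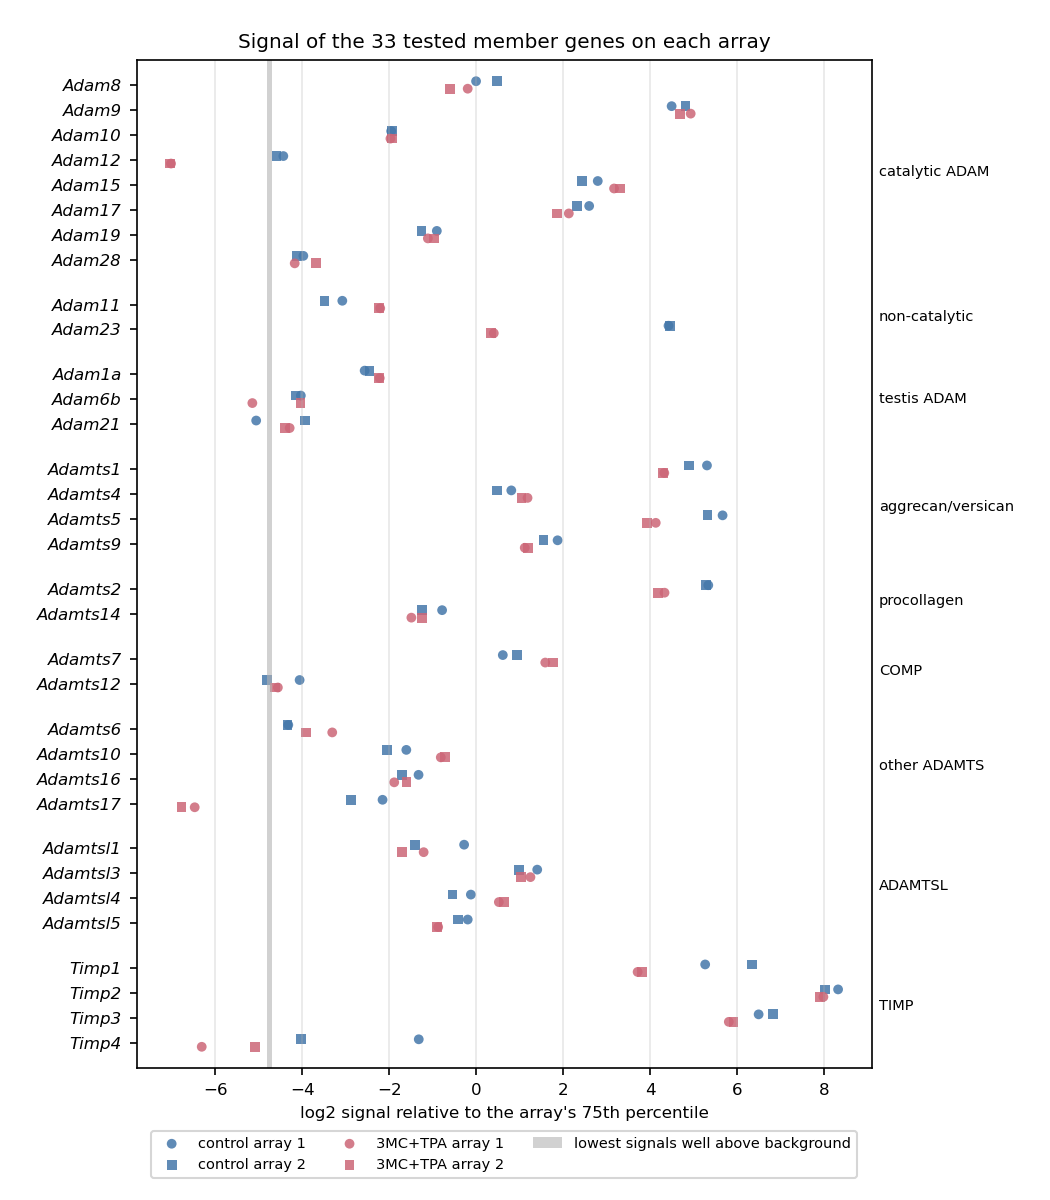
Each row is 1 of the 33 tested genes, with its level (log2 signal over the 75th percentile) on control arrays 1 and 2 (blue) and 3MC+TPA arrays 1 and 2 (red); the grey band spans the lowest signals well above background on the 4 arrays. The groups of Adam23, Adamts17 and Timp1 lie far apart, those of Adam10 coincide, and the control arrays of Timp4 lie further from each other than array 2 of each group.

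Timp1 and Timp3 fell, and Timp2 and Timp4 did not pass. Timp1, the inducible inhibitor of most secreted MMPs and of ADAM10, stood at 5.26 and 6.33 on the control arrays and 3.70 and 3.80 on the 3MC+TPA arrays. Both exposed arrays lay below both control arrays, and the control arrays were themselves over 1 log2 unit apart. The means were 5.79 ± 0.76 in control and 3.75 ± 0.07 in 3MC+TPA cells (SD, n = 2), a log2 change of -2.04 ± 0.37 (SE) or 4.12-fold lower (limma adjusted p = 0.025). Its second probe changed by -2.18 ± 0.36 (adjusted p = 0.019 in the fit of all probes). Without 3MC+TPA array 1 or array 2 the call ended (limma adjusted p = 0.12 and 0.12).

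Timp3, which is held in the matrix and has the widest range of targets among TIMPs, stood at 6.49 and 6.82 on the control arrays and 5.80 and 5.91 on the 3MC+TPA arrays. The groups did not overlap, and it fell 1.74-fold (log2 change -0.80 ± 0.18, SE; limma adjusted p = 0.046). This call was near the threshold: leaving out control array 2 ended it (adjusted p = 0.15), as did leaving out the first (0.17) or second 3MC+TPA array (0.15), and arrays centred on the median (0.058), quantile normalization (0.060) or no scaling between arrays (0.19). Timp2, which inhibits MMPs and takes part in the activation of MMP2 by MMP14, stood at 8.31 and 8.01 on the control arrays and 7.98 and 7.89 on the 3MC+TPA arrays, with a log2 change of -0.23 ± 0.18 (SE, limma adjusted p = 0.42). Without scaling between arrays its change was 0.13 (0.61). Timp2, Timp3 and Timp4 are each read by 1 probe.

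Timp4, a TIMP of heart and fat tissue, stood at -1.33 and -4.03 on the control arrays and -6.32 and -5.08 on the 3MC+TPA arrays. It was well above background on both control arrays and on neither exposed array, and the control arrays lay far apart. Its mean signal was at least 4.35-fold lower in 3MC+TPA cells, where such a bound takes for each dim array its lowest signal well above background, or the probe's own signal if that is higher (measured means -2.68 and -5.70). The difference did not pass (log2 change -3.02 ± 0.94, SE; limma adjusted p = 0.093). The bound rests on control array 1: without it the bound was 1.71-fold and the change -1.67 (adjusted p = 0.12), and without control array 2 they were 11.1-fold and -4.37 (0.014). The change was -2.41 and -3.64 without 3MC+TPA arrays 1 and 2, and -1.31 with normexp background correction. Bounds of this kind are approximate here and below, since a probe brighter than the array's lowest flagged signal can be unflagged. The marker Acr, at -4.40 and -4.42 on the control arrays, was flagged on 1 of them.

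Among the catalytic ADAMs of somatic cells, 8 of 9 were tested, and 1 fell, with a median log2 change of 0.02 over the 8. Adam10, the main sheddase of Notch and N-cadherin, stood at -1.96 and -1.94 on the control arrays and -1.98 and -1.94 on the 3MC+TPA arrays, 4 nearly equal values. Its log2 change was -0.01 ± 0.15 (SE, limma adjusted p = 0.98). Adam10 is read by 1 probe, so no other probe can be set beside it. Adam17, the sheddase of TNF and of EGF receptor ligands, stood at 2.59 and 2.30 on the control arrays and 2.12 and 1.85 on the 3MC+TPA arrays. Both exposed arrays lay below the control arrays, but the change of -0.46 ± 0.19 did not pass (limma adjusted p = 0.17), and its second probe changed by -0.45 ± 0.18 (adjusted p = 0.15).

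Adam9, a broadly expressed ADAM, stood at 4.49 and 4.80 on the control arrays and 4.92 and 4.68 on the 3MC+TPA arrays, with overlapping groups and a log2 change of 0.16 ± 0.19 (SE, limma adjusted p = 0.61). Adam19, meltrin beta, which can process neuregulins, also overlapped, at -0.91 and -1.26 on the control arrays and -1.12 and -0.98 on the 3MC+TPA arrays (change 0.04 ± 0.19, adjusted p = 0.91). Adam15, which has an integrin-binding RGD motif in humans, lay higher on both exposed arrays, at 2.79 and 2.43 on the control arrays and 3.16 and 3.29 on the 3MC+TPA arrays. It did not pass (change 0.62 ± 0.19, SE; limma adjusted p = 0.090), and it did with normexp background correction (adjusted p = 0.036), with an intensity trend in the variance (0.048) and without scaling (0.019). Adam33 was above background on 1 exposed array and was not tested. Adam8, known best from leukocytes, changed by -0.64 ± 0.25 and Adam28, an ADAM of lymphocytes and epithelia, by 0.12 ± 0.22 (SE, limma adjusted p = 0.15 and 0.73).

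Adam12, meltrin alpha, an ADAM of muscle, fat and cartilage precursors, was the 1 catalytic member called, and its signal was close to background throughout. It stood at -4.44 and -4.60 on the control arrays and -7.02 and -7.05 on the 3MC+TPA arrays, above background in both control arrays and in neither exposed array. By the bound used for Timp4, its signal was at least 1.21-fold lower after exposure (measured means -4.52 and -7.03, limma adjusted p = 0.0014). So small a bound is not a strict minimum. The fitted change was -2.52 ± 0.15 (SE), and with normexp background correction it was -0.66 (adjusted p = 0.016). Its other probe was above background on control array 2 alone.

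Of the non-catalytic ADAMs that bind LGI proteins, the 2 tested moved in opposite directions. Adam23, which binds the secreted LGI proteins and integrins and is known best from neurons, stood at 4.42 and 4.46 on the control arrays and 0.40 and 0.33 on the 3MC+TPA arrays. Replicates were nearly equal and the groups far apart: 4.44 ± 0.03 in control and 0.37 ± 0.05 in 3MC+TPA cells (SD, n = 2). This is a 16.8-fold fall (log2 change -4.07 ± 0.15, SE; limma adjusted p = 0.00034). Its second probe, at 1.94 and 1.34 on the control arrays and -2.41 and -2.62 on the 3MC+TPA arrays, changed by -4.15 ± 0.25 (adjusted p = 0.0012 in the fit of all probes). The call held without each array in turn, with adjusted p from 0.0015 to 0.0094.

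Adam11, its relative, stood at -3.08 and -3.49 on the control arrays and -2.21 and -2.23 on the 3MC+TPA arrays. Both exposed arrays lay higher, and it rose 2.1-fold (log2 change 1.07 ± 0.19, SE; limma adjusted p = 0.026). All 3 of its probes were called higher in the fit of all probes, the other 2 by 1.21 ± 0.27 and 1.38 ± 0.17 (adjusted p = 0.044 and 0.0085). The probe that changed by 1.21 was well above background on 1 control array and on both 3MC+TPA arrays. It was tested through the exposed arrays alone, where it is high, so its call adds no support. The call of the brightest probe ended when control array 2 was left out (adjusted p = 0.074), and likewise 3MC+TPA array 1 (0.11) or 3MC+TPA array 2 (0.12), and its change was 0.53 with normexp background correction. The third gene of this kind, Adam22, was not well above background on any array by any of 3 probes.

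ADAMs known from testis or epididymis were mostly not detected. Of 18 such genes, 4 were above background on at least 1 array, 1 on all 4, and 3 were tested, with none called (limma, 0 also at an unadjusted p under 0.05). They were Adam1a, a partner in the sperm protein fertilin, with a log2 change of 0.28 ± 0.15 (SE, limma adjusted p = 0.26), Adam21 and Adam6b. The last 2 stood between -5.06 and -3.94 and between -5.15 and -4.04, around the lowest signals well above background, which ran from -4.81 to -4.69 on the 4 arrays. Adam4 was above background on 1 exposed array. The remaining 14, among them Adam2 and Adam3, both needed for sperm function, were not well above background on any array by their brightest probe. A signal below that limit bounds the level and does not show that a transcript is absent.

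Among the ADAMTS proteases that cut aggrecan and versican, 1 of 4 tested fell, with a median log2 change of -0.67. Adamts5, the main aggrecanase of mouse cartilage, stood at 5.66 and 5.31 on the control arrays and 4.12 and 3.93 on the 3MC+TPA arrays. Both exposed arrays lay more than 1 log2 unit below both control arrays. It fell 2.75-fold, from 5.48 ± 0.25 to 4.02 ± 0.14 (SD, n = 2; log2 change -1.46 ± 0.19, SE; limma adjusted p = 0.011), and its second probe changed by -1.75 ± 0.20 (adjusted p = 0.0074). Without 3MC+TPA array 1 or array 2 the call ended (adjusted p = 0.056 and 0.073).

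Adamts1, which also cuts versican and is the next coding gene to Adamts5 on chromosome 16, stood at 5.30 and 4.88 on the control arrays and 4.32 and 4.29 on the 3MC+TPA arrays. It lay lower on both exposed arrays by both probes (-0.79 ± 0.20 and -0.80 ± 0.21, SE) and narrowly did not pass (limma adjusted p = 0.057 and 0.065). It passed with an intensity trend (0.021), with normexp correction (0.024) and among genes above background on all 4 arrays (0.039). Adamts9, a versicanase, changed by -0.56 ± 0.18 and Adamts4, the other aggrecanase of joints, by 0.47 ± 0.18 (SE, limma adjusted p = 0.10 and 0.15). Without scaling Adamts4 passed, at 0.82 (adjusted p = 0.025). Adamts8 and Adamts15, neighbours on chromosome 9, were each above background on 1 control array only, at -3.70 on array 2 and -4.29 on array 1, and Adamts20 on none.

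Of the proteases that remove the N-propeptide of fibrillar procollagens, Adamts2 fell. It stood at 5.33 and 5.28 on the control arrays and 4.32 and 4.17 on the 3MC+TPA arrays, with means of 5.31 ± 0.03 in control and 4.24 ± 0.11 in 3MC+TPA cells (SD, n = 2). The groups did not overlap, and the fall was 2.09-fold (log2 change -1.06 ± 0.16, SE; limma adjusted p = 0.014). Its second probe, whose letters are given above, lay lower too, at -0.38 and -0.71 on the control arrays and -1.37 and -1.06 on the 3MC+TPA arrays, but did not pass (-0.67 ± 0.21, adjusted p = 0.091). The call ended without 3MC+TPA array 1 (adjusted p = 0.063) or array 2 (0.084).

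Adamts14, a second enzyme of this kind, changed by -0.35 ± 0.22 (SE, limma adjusted p = 0.32) by its brightest probe. Its dimmer probe went the other way, at -4.86 and -4.13 on the control arrays and -3.48 and -3.35 on the 3MC+TPA arrays (1.08 ± 0.27, adjusted p = 0.058). That probe was well above background on 1 control array. It was tested through the exposed arrays alone, where it is high, so it adds no support for a rise. The direction of Adamts14 is not settled. Adamts3, which trims procollagen II and activates VEGF-C, was not well above background on any array by either probe.

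Of the 2 ADAMTS proteases that cut cartilage oligomeric matrix protein, Adamts7 rose. It stood at 0.61 and 0.94 on the control arrays and 1.58 and 1.76 on the 3MC+TPA arrays, with both exposed arrays above both control arrays. It rose 1.87-fold (log2 change 0.90 ± 0.19, SE; limma adjusted p = 0.036), and its second probe by 0.93 ± 0.18 (adjusted p = 0.029). Without any 1 array the call of the brightest probe ended, at adjusted p = 0.10 and 0.052 without control arrays 1 and 2 and 0.11 and 0.16 without 3MC+TPA arrays 1 and 2. Adamts12 stood near background, at -4.07 and -4.82 on the control arrays and -4.57 and -4.62 on the 3MC+TPA arrays, and did not pass (limma adjusted p = 0.74).

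Among the other ADAMTS genes, 1 rose and 1 fell of 4 tested. Adamts17, whose loss causes a Weill-Marchesani-like syndrome with defects of fibrillin microfibrils, stood at -2.16 and -2.89 on the control arrays and -6.48 and -6.78 on the 3MC+TPA arrays. It was above background on both control arrays and on neither exposed array, where it was at least 4.84-fold lower (measured means -2.52 and -6.63; limma adjusted p = 0.0019). The fitted change of -4.11 ± 0.29 (SE) was -1.33 with normexp background correction. The bound was 3.76-fold and 6.22-fold without control arrays 1 and 2. Adamts17 is read by 1 probe.

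Adamts10, linked to the same syndrome and a binding partner of fibrillin, went up. It stood at -1.61 and -2.07 on the control arrays and -0.82 and -0.73 on the 3MC+TPA arrays, a rise of 2.09-fold (log2 change 1.07 ± 0.21, SE; limma adjusted p = 0.030). Its second probe lay higher as well but did not pass (0.72 ± 0.30, adjusted p = 0.17), and the mean of both probes did not either (0.074). Without control array 2, 3MC+TPA array 1 or 3MC+TPA array 2 the call ended (adjusted p = 0.081, 0.11 and 0.14). Adamts6, its closest relative, changed by 0.72 ± 0.24 (SE, limma adjusted p = 0.10), near background in control cells, and passed without scaling between arrays (0.023). Adamts16 changed by -0.23 ± 0.21 (adjusted p = 0.49). Adamts13, the von Willebrand factor protease of blood, Adamts18 and Adamts19 were not well above background on any array.

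Of the ADAMTS-like genes, 1 of 4 tested rose. Adamtsl4, a microfibril-associated protein of the eye's zonule, stood at -0.13 and -0.55 on the control arrays and 0.51 and 0.63 on the 3MC+TPA arrays. Both exposed arrays were higher, by 1.88-fold on average (log2 change 0.91 ± 0.20, SE; limma adjusted p = 0.041). Adamtsl4 is read by 1 probe. The call ended when control array 2 was left out (adjusted p = 0.12), and likewise 3MC+TPA array 1 (0.13) or 3MC+TPA array 2 (0.17). Adamtsl5, a fibrillin-binding protein, lay lower by its brightest probe (-0.58 ± 0.16, adjusted p = 0.075) and at 0.35 ± 0.31 by the other (adjusted p = 0.47). Adamtsl1 and Adamtsl3 changed by -0.62 ± 0.41 and -0.05 ± 0.21 (SE, limma adjusted p = 0.35 and 0.90), and Adamtsl2 was not well above background.

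**Figure D2:**
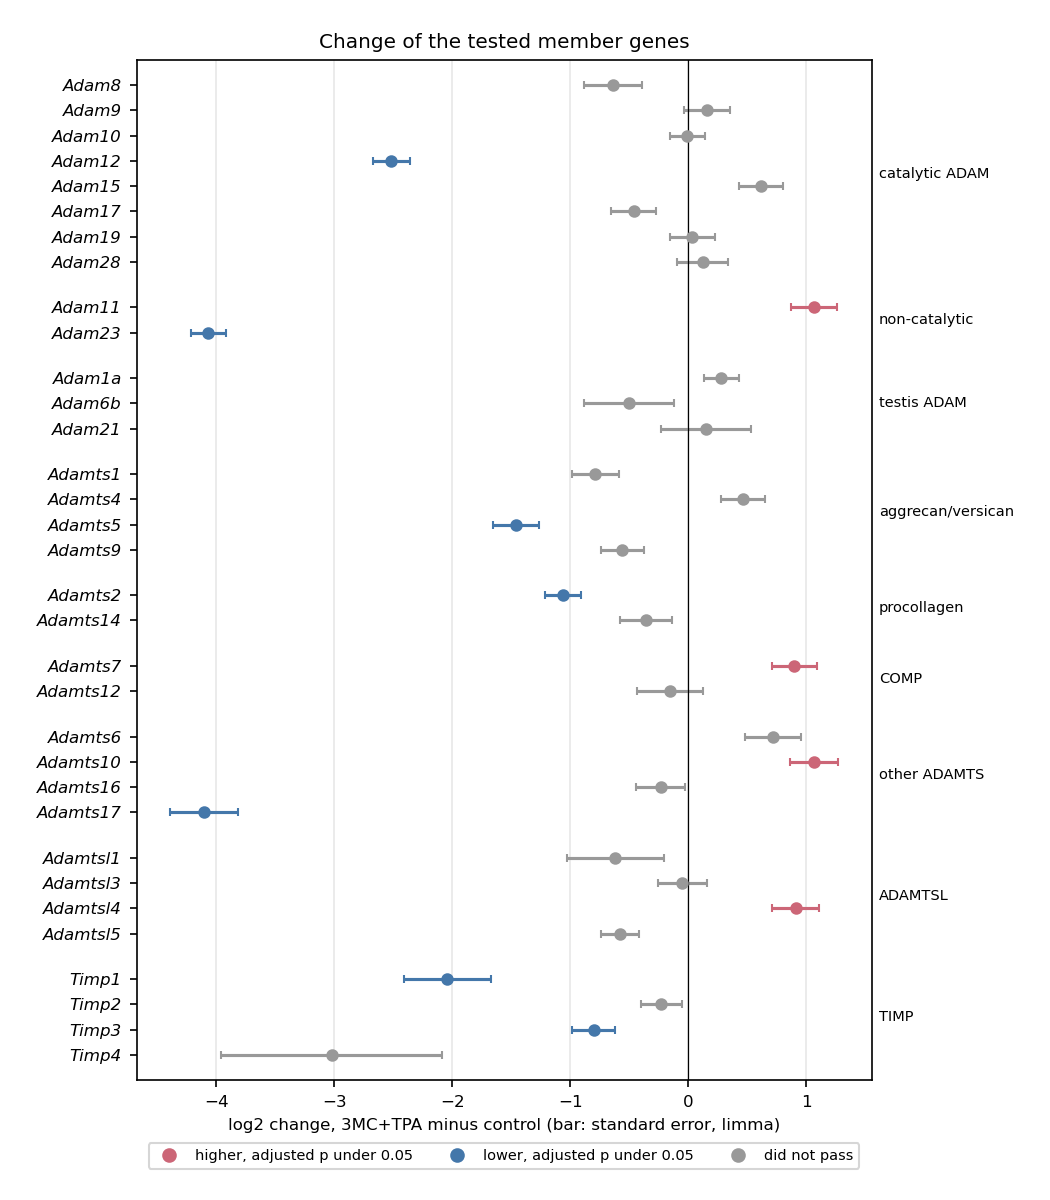
Points are log2 changes (3MC+TPA minus control) of the 33 tested genes by kind, with the standard error of the limma fit as bars; blue points passed lower, red points higher and grey points did not pass. The 7 that passed lower run from -0.80 (Timp3) to -4.11 (Adamts17, dim in exposed cells), and the 4 that passed higher lie between 0.90 and 1.07.

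Second probes gave a check within the members. Over 1 probe was tested for 14 genes, and for 11 of them all tested probes had the same sign. All tested probes passed for 5 of these 14 genes (Adam11, Adam23, Adamts5, Adamts7 and Timp1). The dimmest Adam11 probe and the dimmer Adamts14 probe were tested through the exposed arrays alone, where they are high. Of all probes tested on their own, 15.5% passed, which is a share of single probes and not of genes. The share of all genes with every tested probe called was not computed. The calls of the probes differed for Adamts2 and Adamts10. The signs differed for Adam19, Adamts14 and Adamtsl5, none of which had a probe that passed. Probes of 1 gene share the 4 RNA samples and are not replicates.

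**Figure D3:**
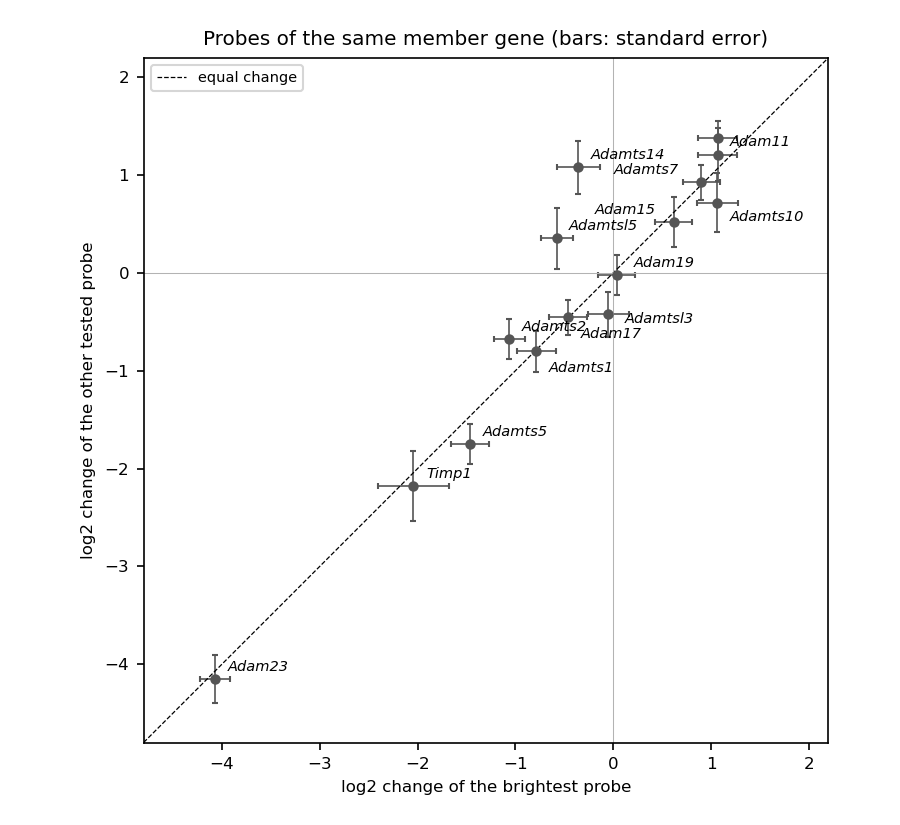
Each point sets the log2 change of a gene's brightest probe (x axis) against that of another tested probe (y axis), with standard errors as bars and a dashed line of equal change. Adam23, Timp1 and Adamts5 lie near the line in the lower left, and Adamts14 lies off it, at -0.35 against 1.08.

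Regulators of ADAM10 and ADAM17 were read from a list of 15 genes, of which 11 were tested, 3 rose and 1 fell. Over all genes tested, 7.28% were higher and 8.46% lower. This list and those below were chosen with earlier results of these data known, so their counts are descriptions and not tests. The 3 that rose are tetraspanins of the group that escorts ADAM10 out of the endoplasmic reticulum. Tspan15 stood at -3.33 and -3.73 on the control arrays and -0.64 and -0.32 on the 3MC+TPA arrays and rose 8.25-fold (log2 change 3.04 ± 0.22, SE; limma adjusted p = 0.0019). Tspan17 rose 2.51-fold and Tspan5 2.17-fold (adjusted p = 0.0076 and 0.016). Without 3MC+TPA array 2 these 2 did not pass (0.058 and 0.092), nor did Tspan5 without 3MC+TPA array 1 (0.072) or control array 2 (0.058). With normexp correction the change of Tspan15 was 1.97. Tspan14 of the same group changed by 0.12 ± 0.19 (adjusted p = 0.71).

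Pcsk6, a proprotein convertase that activates aggrecanases, stood at 2.66 and 3.87 on the control arrays and -1.29 and -1.56 on the 3MC+TPA arrays, a 25.9-fold fall (log2 change -4.69 ± 0.41, SE; limma adjusted p = 0.0037). The control arrays were over 1 log2 unit apart, and the change was -5.30 and -4.09 without control arrays 1 and 2. Furin, the convertase that matures most ADAMs, changed by -0.26 ± 0.19 (adjusted p = 0.40), and Rhbdf1, an iRhom that carries ADAM17 to the surface, by 0.35 ± 0.18 (adjusted p = 0.24).

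Of 25 listed substrates shed by ADAMs, 23 were tested, 3 rose and 1 fell, with a median log2 change of 0.19. These counts are near the share of all genes tested that were called (15.7% in either direction). Areg, an EGF receptor ligand, was above background on the exposed arrays only, at -6.95 and -6.61 on the control arrays and -3.90 and -3.76 on the 3MC+TPA arrays, and was at least 1.87-fold higher there (measured means -6.78 and -3.83; limma adjusted p = 0.0015). It was tested through the exposed arrays alone, and with normexp correction its change was 0.43 and did not pass (0.056). Cdh2, N-cadherin, rose 2.44-fold (adjusted p = 0.012), a call that ended without 3MC+TPA array 1 (0.065) or array 2 (0.051). Hbegf, a further EGF receptor ligand, rose 2.33-fold (adjusted p = 0.030; 0.061 without control array 1, and 0.099 and 0.14 without 3MC+TPA arrays 1 and 2). Btc, betacellulin, fell 3.02-fold (adjusted p = 0.029; log2 change -1.59 ± 0.31, SE, or -0.99 with normexp correction), and did not pass without control array 1 (0.076) or 3MC+TPA array 2 (0.10).

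Of 18 listed substrates and matrix partners of ADAMTS proteases, 17 were tested, and 6 fell and 0 rose, with a median log2 change of -0.74. Over all genes tested, 8.46% were lower and 7.28% higher. This list too was chosen with earlier results known. Fbn2, fibrillin 2, stood at 1.34 and 1.17 on the control arrays and -3.06 and -2.59 on the 3MC+TPA arrays and fell 16.9-fold (log2 change -4.08 ± 0.21, SE, or -3.40 with normexp correction; limma adjusted p = 0.00090). Ccbe1, the cofactor of ADAMTS3 in the activation of VEGF-C, stood at -0.23 and -0.28 on the control arrays and -3.88 and -4.56 on the 3MC+TPA arrays and fell 15.6-fold (-3.96 ± 0.26, adjusted p = 0.0015); with normexp correction its log2 change was -2.63. Ncan, neurocan, was at least 1.39-fold lower, near background (measured means -4.32 and -5.65; adjusted p = 0.0070, 0.054 without 3MC+TPA array 2); it was tested through the control arrays alone, and with normexp correction its change was -0.49. The other genes that fell were Vegfc, the lymphatic growth factor that ADAMTS3 activates (-1.02 ± 0.17, adjusted p = 0.020), Efemp2, an elastic fibre protein (-0.94 ± 0.19, 0.031), and Bgn, biglycan (-1.29 ± 0.20, 0.017). Leaving out 3MC+TPA array 1 ended all 3 of these calls (adjusted p = 0.092, 0.12 and 0.068). The same held for Vegfc without control array 1 (0.058) or 3MC+TPA array 2 (0.10), for Bgn without control array 2 (0.056) and for Efemp2 without any other array (0.069 to 0.10) or without scaling (0.10). Vcan, versican, the main substrate of ADAMTS1 and ADAMTS5 in fibroblasts, stood at 0.64 and 2.03 on the control arrays and -0.35 and -0.46 on the 3MC+TPA arrays and did not pass (-1.74 ± 0.46, adjusted p = 0.065). It passed without control array 1 (-2.43, adjusted p = 0.0046) or control array 2 (-1.05, 0.050), with normexp correction (0.032), with an intensity trend (0.031) and among genes above background on all 4 arrays (0.037). The procollagen genes Col1a1, Col1a2 and Col3a1 changed by -0.25 ± 0.16, 0.09 ± 0.19 and 0.53 ± 0.24 (SE, adjusted p from 0.19 to 0.76).

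Other inhibitors and ADAMTS-processing genes were listed under 11 names, of which 10 were on the array. The name not found, B3glct, is another symbol of B3galtl, which was. Of the 10, 4 were tested, with none called in limma at the adjusted or the unadjusted 0.05. They included Reck, a membrane inhibitor of MMPs and ADAM10, at 0.37 ± 0.25, and Lrp1, the receptor that clears TIMPs and ADAMTS proteases, at 0.28 ± 0.15 (SE, limma adjusted p = 0.36 and 0.25). Among 5 MMPs inhibited by TIMPs, 2 fell and 1 rose, beside 8.46% lower and 7.28% higher over all genes tested. Mmp16, a membrane MMP, fell 2.32-fold (adjusted p = 0.011; 0.058 and 0.068 without 3MC+TPA arrays 1 and 2). Mmp9 was at least 12.6-fold lower (measured means -1.14 and -4.89; adjusted p = 0.0086; 0.063 without 3MC+TPA array 1 or 2). Its bound was 7.9-fold and 20.2-fold without control arrays 1 and 2, and its change of -3.75 ± 0.45 (SE) was -2.19 with normexp correction. Mmp15 was at least 1.63-fold higher (measured means -6.63 and -4.02; adjusted p = 0.0029; 0.40 as log2 change and 0.073 with normexp correction). Mmp9 and Mmp15 were each tested through the group where they are high. Mmp2 and Mmp14, the partners of TIMP2, did not pass (0.79 ± 0.32 and -0.38 ± 0.21, adjusted p = 0.16 and 0.26).

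**Figure D4:**
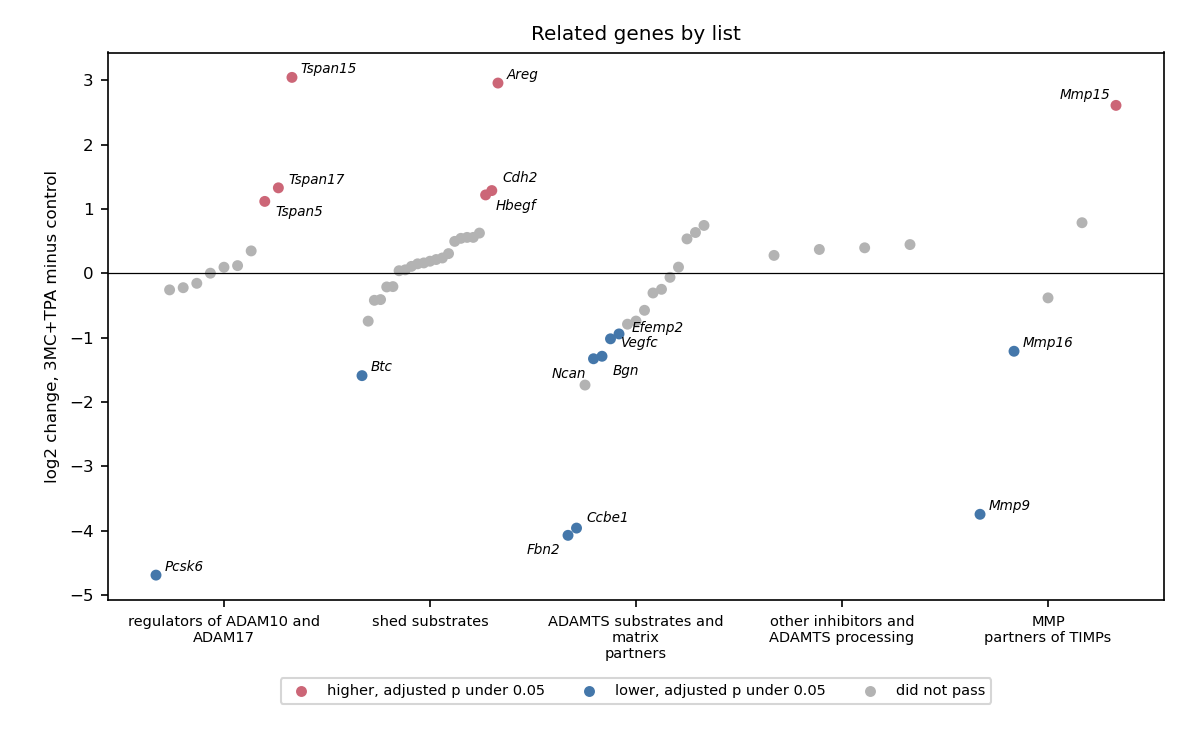
Each point is the log2 change (3MC+TPA minus control) of a tested related gene, in 5 lists and ordered by size within each; red and blue points passed higher and lower. The matrix partners hold 6 blue points and no red one, led by Fbn2 and Ccbe1, and 3 red points among the regulators are tetraspanins.

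The labelled cell type was checked by markers. All 10 fibroblast and mesenchymal markers were above background on all 4 arrays; Pdgfra, Pdgfrb and Postn fell and Thy1 rose (limma adjusted p between 0.0091 and 0.047), and the summed signal of the list was 10.81 to 10.97 log2 in control and 10.61 to 10.66 in 3MC+TPA cells. Of the leukocyte markers, Ptprc, Itgam and Emr1 were below background on every array, while Cd68 and Cd3e were above it on all 4 arrays and did not pass (limma adjusted p = 0.13 and 0.15). Epithelial markers, 3 of 6 above background on all 4 arrays, summed to -1.88 to -1.72 and -1.85 to -1.70, with Cdh1 and Krt18 below background, Krt8, Krt5 and Krt14 above it and Epcam above it on 1 exposed array. Of 4 endothelial markers, Tek alone was tested; it was above background on the exposed arrays only and at least 1.76-fold higher (measured means -5.71 and -3.91, limma adjusted p = 0.0090), with Pecam1 and Cdh5 below background and sums of -4.63 to -3.95 and -3.37 to -3.26. The 5 germ cell markers summed to -1.27 to -1.10 and -1.87 to -0.68, with Ddx4 and Sycp3 below background on every array. The sum was carried by Prm1, above background on all 4 arrays (-1.55 and -1.64 on the control arrays and -2.43 and -0.87 on the 3MC+TPA arrays), while Acr was above it on 3 arrays and Dazl on control array 1. The part of other cell types in the results above was not tested, and fewer cells of a type and less RNA per cell cannot be told apart in such samples.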

How the data were processed

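RNA of 2 control and 2 3MC+TPA samples was read in 1 colour (Cy3) on 4 arrays of 1 slide, with the control arrays in the first positions, so that group and position cannot be told apart. Intensity values of each spot were made by the authors with Agilent Feature Extraction 10.7.3.1, per the file headers; the processed signal is corrected for background and trends within the array, with substitute values for dim spots. Scanner flags (well above background, outlier, saturated) are other columns of the same deposited files. The authors' deposited log2 values, per the series' design text from GeneSpring GX 11.5, equal log2 processed signal minus the 75th percentile within 0.01 for at least 61236 of 61307 probes (column medians -4.29, -4.31, -4.39 and -4.35 in sample order, not centred by gene) and served as an alternative.

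The 1319 control spots and 20 to 68 outlier spots of each array were left out; none of the 61657 other spots was saturated, and 32125 to 32512 were well above background. Each array was scaled by its own 75th percentile (processed signals of 535 to 741) before log2 was taken, and repeated spots were averaged. The number of arrays limits the precision. Groups were compared with limma 3.58.1 (lmFit, eBayes, 2-sided, R 4.3.3) over 24981 gene names, with Benjamini-Hochberg adjustment and a threshold of 0.05. The members, gene lists and kinds were chosen with earlier results of these data known. Values are given for members that passed, all TIMPs, Adam9, Adam10, Adam15, Adam17 and Adam19, members whose probes differ in call or that were above background in 1 group only, and up to 3 called genes per related list. Other genes given with values, such as Tspan5, Adamts1, Adamts14 and the related and marker genes that did not pass, were named after their values were seen. Alternatives were other background corrections, scalings, filters, probe choices and variance models, and leaving out each array. The summed signal of the leukocyte markers is not reported here. No coordinates of the array were used, since its grid is on another build than the gene table.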

Additional observations from a re-analysis of the deposited data

How the results depend on the processing

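With 1 array left out, all genes called ranged over 372 to 1471 higher and 738 to 1816 lower, members over 0 to 3 higher and 3 to 7 lower, and related genes over 3 to 8 higher and 4 to 9 lower; a group is then 1 array, assumed to vary like the other group. The count of members lower was 3 without either 3MC+TPA array, and that of members higher was 0 without control array 2 or either 3MC+TPA array. The median of the members ranged from -0.42 to -0.074, the lowest without control array 2. Without scaling between arrays 5319 genes were higher and 1404 lower (79.1% of calls higher, against 46.2%), 7 members and 16 related genes were higher, and the members' median was 0.13 where that of all genes was 0.34. With no filter on dim probes, over 50090 genes, 343 were higher and 590 lower, members 0 and 3, related genes 4 and 3. The methods' t-test called 10 higher and 13 lower after adjustment, with 0 members and 0 related genes in either direction (the cause of these shifts was not tested); at an unadjusted 0.05 it passed 5695 genes and 11 members, and limma 8398 genes and 18 members. Adam23 passed under every alternative run except the t-test (adjusted p = 0.060). Adam12 and Adamts17 were tested through the group where they are high, so their calls under other settings say nothing of stability. The array number does not pair samples (correlation of deviations over genes 0.003); with it as a replicate block 1536 genes were higher and 1924 lower, members 3 and 6, and the calls of Adamtsl4 and Timp3 ended (adjusted p = 0.060 and 0.056). Changes that turned sign belonged to members that did not pass: Adam10 was 0.012 with quantile normalization, 0.062 with median centring, 0.35 without scaling and -0.027 to 0.014 without 1 array, Timp2 was 0.13 and Adamts14 7e-04 without scaling, Adamts14 was 0.36 by the mean of its probes, and without 1 array Adam19 ran from -0.14 to 0.21 and Adam9 from -4e-04 to 0.32. Signal over background limits Adam12, Adamts17, Timp4 and the 25 untested members to bounds.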
